A study of Mus musculus with 6 samples.

Results

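The levels of 10 genes that make or service the ribosome and process RNA were described in the liver of antibiotic-treated (ABX) mice. They were chosen by symbol from the 55357 rows of the deposited count table and stand for a ribosomal protein (Rps20), ribosome assembly (Nol6), RNA polymerase I (Polr1e), the exosome (Exosc3), the RNA cap (Ncbp1, Tgs1), the Integrator (Ints8), splicing (Smu1), an RNA-binding cofactor of silencing and splicing (Snd1) and transfer RNA charging (Rars2). Each symbol matched 1 row, and all 10 rows had enough counts to be tested. The mice were C57BL/6 in the labels (C57BL/6N in the methods) and received gentamicin, sulbenicillin, a cephalosporin and amphotericin B in the drinking water, which depletes the gut microbiota. NLD mice (n = 3) had 12 h of light and 12 h of dark, SD mice (n = 3) had 8 h of light and 16 h of dark, and both groups carried the same antibiotics, so no animal with an intact microbiota enters the comparison. The age of the mice is not given in the sources used here, the labels give Day 28, and the methods give a longer trial that ended with a fast and a morning sampling.

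A ribosome is built in the nucleolus, where RNA polymerase I transcribes the precursor of the ribosomal RNAs and assembly factors fold and cut it around the ribosomal proteins. Messenger RNA receives a cap that nuclear cap-binding proteins read, is spliced, and is translated with transfer RNAs that synthetases have charged, while the exosome trims or destroys RNA from its 3′ end. Liver is a protein-secreting tissue in which ribosomal protein transcripts are abundant, and their use is known to follow feeding and fasting.

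Short day moved none of the 10 genes past an adjusted p of 0.05 from edgeR in either direction. The log2 fold change lay between -0.32 (Smu1) and 0.36 (Ints8), with 5 genes above 0 and 5 below 0. Ncbp1 was the gene whose 3 SD libraries all lay above the 3 NLD libraries, Smu1 was the gene whose SD libraries all lay below them, and the groups overlapped in the other 8. Rps20 had the highest level per length and Polr1e the lowest.

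The libraries held 5497797 to 6932965 counts each, and the 10 genes together took between 0.652% and 0.719% of them, with single counts from 222 to 22823. Levels are given in CPM, the counts scaled to the TMM-adjusted library size, and a value after ± is the standard deviation over the 3 mice of a group. On the first principal component of all tested rows (30.3% of the variance), the scores of NLD replicates 2 (75) and 3 (27.7) were above 0 and those of the other 4 libraries ran from -44.8 to -13.3. Of 17 rows named after hepatocyte markers, 8 had counts, and Ttr, Apoa1, Apob and Fgg were among the 9 at 0. Cyp7a1 and Pon1, hepatocyte markers whose gene position is the same in GRCm38 and GRCm39, had counts in every library. None of 6 Kupffer cell markers had a count. Of 5 lymphocyte markers 3 had counts, in rows that do not keep their position. Their sum was 380.2 to 483 CPM under NLD (all marker sums use the unadjusted totals) and 343 to 363 under SD. The summed endothelial markers, also in rows that do not keep their position, were 1581 to 1941 CPM under NLD and 1671 to 2055 under SD. Those of stellate cells and fibroblasts, of which only Col1a2 keeps its position, were 139 to 233 and 143 to 313 CPM. Rows that do not keep their position may stand for other genes. The ranges of the endothelial sums and of the stellate cell and fibroblast sums overlapped between the groups. Those of the lymphocyte sums did not. The part of these marker values in the results below was not tested. In whole liver, fewer cells of a type and less RNA per cell cannot be told apart.

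The labels name GRCm38 and the methods name GRCm39, and only 535 of the 21113 protein-coding rows that could be matched (2.53%) keep their position between them. All 10 genes are among these 535. This was judged at the end of each gene that differed less, and the other end can differ by more, as in Rps20, which starts at 3792164 in the GRCm39 annotation and at 3831584 in that of GRCm38.p6. In the GRCm39 annotation, exons of 7 of the 10 overlap those of a protein-coding gene on the opposite strand. No strand setting of the counting is given in the sources used here. If strand was not used, reads from the shared bases of such a pair cannot be told apart. The shared bases of a pair made up from 0.48% of the exon bases (Polr1e) to 47.7% (Smu1, where they are 7150 of 14981). All overlaps given here were taken from the GRCm39 annotation only, and the gene models that were counted may differ. Smu1, for example, starts at 40724205 in that annotation and at 40735649 in that of GRCm38.p6.

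Promoter sequences were found for 5 of the 10 genes (Polr1e, Exosc3, Ncbp1, Snd1 and Rars2) among RefSeq promoters of GRCm38.p6, each running from 250 bases before to 50 bases after the start of transcription. The letters CCGGAAG, or CTTCCGG on the other strand, occurred once in each of these 5. They contain the GGAA core that ETS transcription factors bind. The stretch of 30 bases around the match is shown for each, as a sequence feature that the 5 genes have in common, in the direction of transcription and with the match in capitals.
Polr1e: ctagaatgtcaCTTCCGGtttttgagtccg
Exosc3: ggaagtagataCCGGAAGctgcgatggtga
Ncbp1: gtcacctttctCCGGAAGtctcctaagtcg
Snd1: tcaagacttccCCGGAAGtcccgcctcaaa
Rars2: agcagaggcgaCTTCCGGcgcggaggcggg

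These stretches lie at chr4:45018623-45018652 (plus strand), chr4:45320600-45320629 (minus strand), chr4:46138487-46138516 (plus strand), chr6:28480160-28480189 (plus strand) and chr4:34614942-34614971 (plus strand) of GRCm38.p6, in the order shown. The first base of the match stood 2 bases before the start in Exosc3, 4 before it in Rars2 and 13 before it in Ncbp1, while it stood 177 bases before it in Snd1 and at base 26 of the transcript in Polr1e. The same letters were found in 2910 of all 32851 promoters of the table (8.86%), which include those of genes that do not code for protein. The motif was chosen after these sequences had been seen. GGGCGG, read on both strands (CCGCCC) and bound by factors of the SP family, was also present in all 5, as in 35.7% of all promoters. CCAAT, searched on both strands as well, was found only in the window of Snd1, against 37.4% of all promoters. TATAAA, on both strands, was found only in that of Ncbp1, against 13.6%. The G and C content of the 5 windows was 54.0% to 66.3%. A match describes these letters and is no evidence of binding.

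Rps20 encodes a protein of the small ribosomal subunit and lies on chromosome 4 of GRCm39 from 3792164 to 3835669, minus strand. It had 2749, 3817 and 3757 CPM in NLD replicates 1, 2 and 3 and 2867, 3244 and 2747 CPM in SD replicates 1, 2 and 3. NLD replicates 2 and 3 were the highest of the 6 libraries, and NLD replicate 1 was as low as the SD libraries, so that the groups overlapped. The means were 3441 ± 600.3 and 2952.5 ± 259.4 CPM (n = 3 each), a log2 fold change of -0.22 (standard error 0.17, 95% interval -0.62 to 0.17, adjusted p = 0.716 from the quasi-likelihood test of edgeR). Without NLD replicate 1 the log2 fold change was -0.36, with an unadjusted p of 0.0285 and an adjusted p of 0.296 from edgeR. NLD replicates 2 and 3 are the libraries with a score above 0 on the first principal component, and their part in this difference was not tested. In the annotation, 6 other genes hold a transcript at least 90% identical to at least 50% of the Rps20 coding sequence. Of these, 5 are in the table and 1, Gm6607, had counts, with 67 to 120 per library, at most 0.709% of those of Rps20.

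Nol6, a nucleolar protein of the complex that processes the small subunit's RNA, lies on chromosome 4 from 41113617 to 41124471, minus strand. Its level was 255, 213 and 251 CPM in the 3 NLD libraries and 219, 256 and 221 CPM in the 3 SD libraries. The highest and the lowest library were both a replicate 2, of SD and of NLD. The means of 239 ± 23.4 and 232 ± 20.5 CPM (n = 3 each) gave the smallest log2 fold change of the 10 genes, -0.05 (95% interval -0.37 to 0.28, adjusted p = 0.934 from edgeR). Polr1e, the subunit of RNA polymerase I also known as PAF53, lies on chromosome 4 from 45018583 to 45038513, plus strand. It had 51.2, 37.1 and 56.4 CPM under NLD and 64.7, 62.1 and 47.9 CPM under SD. NLD replicate 2 was the lowest and SD replicate 1 the highest, and SD replicate 3 lay below NLD replicates 1 and 3. Its log2 fold change was 0.27, with the widest interval of the 10 genes, -0.25 to 0.80 (adjusted p = 0.740 from edgeR). Without NLD replicate 2 it was 0.11, and without NLD replicate 3 it was 0.40.

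Exosc3, known as RRP40, is part of the cap of the exosome, the ring through which RNA is threaded for 3′ decay. It lies on chromosome 4 from 45316173 to 45342732, minus strand, and 856 of its 2354 exon bases overlap Trmt10b on the opposite strand. It had 145, 215 and 193 CPM in the NLD libraries and 168, 186 and 134 CPM in the SD libraries. As for Rps20, NLD replicates 2 and 3 were the highest of the 6, SD replicate 3 was the lowest, and NLD replicate 1 lay within the range of the SD libraries. The log2 fold change was -0.18 (standard error 0.20, 95% interval -0.66 to 0.30, adjusted p = 0.826 from edgeR), and it was -0.33 without NLD replicate 1 and -0.06 without SD replicate 3. Trmt10b, a transfer RNA methyltransferase, had 47.6 ± 10.7 CPM under NLD and 45.9 ± 2.50 CPM under SD (n = 3 each, adjusted p = 0.955 from edgeR).

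**Figure D1:**
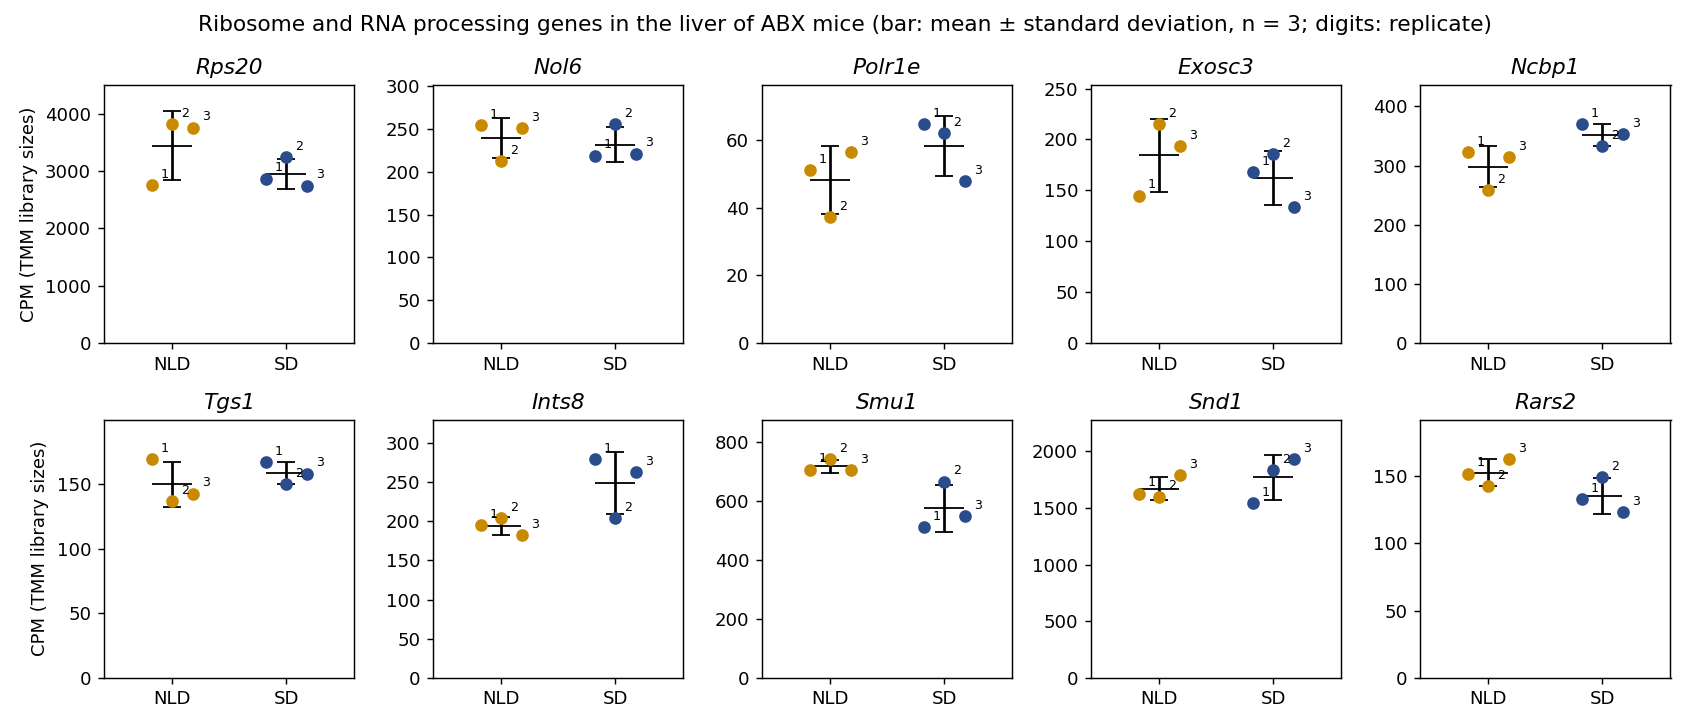
CPM of the 10 genes in each of the 6 libraries, with NLD in yellow and SD in blue; the horizontal line is the mean and the error bar the standard deviation of 3 mice, the digit is the replicate, and each axis starts at 0. The 3 SD points lie above the 3 NLD points for Ncbp1 and below them for Smu1, and the points of the groups overlap in the other 8 panels.

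Ncbp1 encodes CBP80, the large subunit of the nuclear cap-binding complex, and lies on chromosome 4 from 46138458 to 46175268, plus strand. It had 323, 258 and 314 CPM under NLD and 369.8, 333 and 353 CPM under SD. The lowest SD library was above the highest NLD library, and the gap between the nearest, NLD replicate 1 and SD replicate 2, was small beside the spread within NLD. The means were 298 ± 35.1 and 352 ± 18.6 CPM (n = 3 each), a log2 fold change of 0.24 (standard error 0.14, 95% interval -0.09 to 0.56, adjusted p = 0.652 from edgeR). Without NLD replicate 2, the lowest library, it was 0.14. Groups without overlap are common in this table: 9.08% of all tested rows were higher under SD in this sense and 7.93% were lower, 17% in all, against 2 of the 10 genes. Of the exon bases of Ncbp1, 1494 of 6678 overlap Xpa, a DNA repair gene on the opposite strand. Xpa went the other way, with 137 ± 23.5 CPM under NLD and 90.6 ± 16.4 CPM under SD (n = 3 each, adjusted p = 0.515 from edgeR, log2 fold change -0.59).

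Tgs1, which adds methyl groups to the caps of small nuclear and nucleolar RNAs, lies on chromosome 4 from 3574579 to 3618325, plus strand. Its level was 169, 137 and 143 CPM under NLD and 167, 150.2 and 158 CPM under SD. The SD libraries lay between the highest and the lowest NLD library. Gm5117, a near-identical copy of Tgs1 elsewhere in the genome, was listed at 0 in every library. This gave a log2 fold change of 0.08 (95% interval -0.25 to 0.41, adjusted p = 0.876 from edgeR), which was 0.18 without NLD replicate 1 and 0.02 without NLD replicate 2. Ints8 belongs to the Integrator, which cuts the 3′ ends of small nuclear RNAs and ends transcription early at many genes, and lies on chromosome 4 from 11196821 to 11254266, minus strand. It had 196, 204.2 and 182 CPM under NLD and 279.9, 204.1 and 264 CPM under SD. SD replicates 1 and 3 lay well above the NLD libraries, while SD replicate 2 was level with NLD replicate 2. The means of 194 ± 11.2 and 249 ± 39.9 CPM (n = 3 each) gave the highest log2 fold change of the 10 genes, 0.36 (standard error 0.16, 95% interval -0.01 to 0.74, unadjusted p = 0.0564 and adjusted p = 0.598 from edgeR). DESeq2 gave an unadjusted p of 0.0454 and an adjusted p of 0.485. Without SD replicate 2 the log2 fold change was 0.48 (unadjusted p = 0.0161, adjusted p = 0.493 from edgeR). Ccne2, the cyclin on the opposite strand that shares 852 of the 9817 exon bases of Ints8, had 25.9 ± 6.06 CPM under NLD and 42.9 ± 6.92 CPM under SD (n = 3 each). Its log2 fold change was 0.73 (unadjusted p = 0.0195 and adjusted p = 0.504 from edgeR), above 0 as for Ints8. The SD libraries of Ccne2 all lay above its NLD libraries. Whether reads of Ccne2 entered the counts of Ints8 was not tested.

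Smu1, a protein of the spliceosome before its activation, lies on chromosome 4 from 40724205 to 40757923, minus strand. It had 705, 741 and 703 CPM in the NLD libraries and 511, 665 and 548 CPM in the SD libraries. The NLD libraries were close together, and all 3 SD libraries lay below them, SD replicate 2 by the least. The means were 716 ± 21.6 and 574 ± 80.5 CPM (n = 3 each), a log2 fold change of -0.32 (standard error 0.14, 95% interval -0.65 to 0.01, unadjusted p = 0.0571 and adjusted p = 0.598 from edgeR). DESeq2 gave an unadjusted p of 0.0263 and an adjusted p of 0.382. Without SD replicate 2 the log2 fold change was -0.45 (unadjusted p = 0.0179, adjusted p = 0.496 from edgeR). The lowest library of Smu1, SD replicate 1, was the highest of Dnaja1, a co-chaperone on the opposite strand. Dnaja1 had 3499, 3157 and 3833 CPM under NLD and 5736, 3448 and 3813 CPM under SD (adjusted p = 0.704 from edgeR). Whether reads were exchanged between the pair was not tested.

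Snd1, a Tudor and nuclease domain protein found in the silencing complex and bound to splicing factors, lies on chromosome 6 from 28475138 to 28935161, plus strand. It is the only one of the 10 outside chromosome 4. Its level was 1627, 1599 and 1788 CPM under NLD and 1544, 1833 and 1932 CPM under SD, so that SD held both the lowest and the highest library. The log2 fold change was 0.08 (95% interval -0.23 to 0.40, adjusted p = 0.872 from edgeR), and it was 0.17 without SD replicate 1 and 0.01 without SD replicate 3. Rars2, the mitochondrial enzyme that charges transfer RNA with arginine, lies on chromosome 4 from 34614638 to 34660904, plus strand. It had 152, 143 and 163 CPM under NLD and 133, 149.6 and 124 CPM under SD. SD replicate 2 lay within the NLD range and the other SD libraries below it. The difference was -0.17 on the log2 scale (95% interval -0.49 to 0.15, adjusted p = 0.731 from edgeR). It was -0.26 without SD replicate 2 and -0.11 without SD replicate 3.

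**Figure D2:**
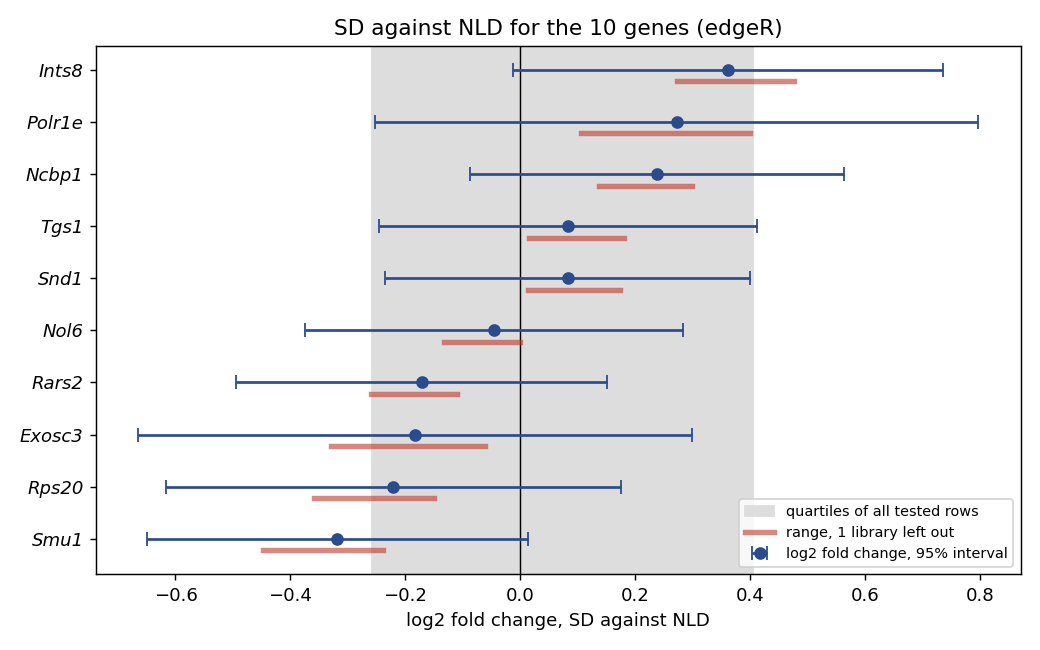
Log2 fold change of SD against NLD for the 10 genes, with the 95% interval from edgeR (blue), the range when 1 library is left out in turn (red) and the range between the quartiles of all tested rows (grey, -0.26 to 0.40). All 10 intervals include 0, and the points run from -0.32 for Smu1 to 0.36 for Ints8.

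Over the whole table, 21 of 7261 rows (0.289%) had an adjusted p under 0.05 from edgeR and 137 (1.9%) from DESeq2, and the 10 genes had 0 with either tool. At an unadjusted p under 0.05 edgeR gave 8.48% of all tested rows and 0 of the 10 genes, and DESeq2 gave 9.98% and 2 of the 10, Ints8 and Smu1. The median log2 fold change was 0.02 for the 10 genes and 0.03 for all tested rows, and the median size of the change was 0.20 and 0.32. The bounds of the 95% intervals of the 10 genes reach from 0.631-fold (Exosc3) to 1.74-fold (Polr1e). They differ in width, from 0.85- to 1.32-fold in Snd1 to 0.839- to 1.74-fold in Polr1e. For each gene, a change of any size within its own interval remains compatible with the data at this number of mice. An exact permutation test of 3 mice against 3 has 0.10 as its smallest p.

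The 10 genes varied less between mice of a group than most rows of the table. Their coefficient of variation within groups had a median of 9.30%, with 8.14% for Rars2 and 18.2% for Exosc3 at the ends, against a median of 27.3% over all tested rows and 17.2% over the 347 tested rows that keep their position. They are also more abundant, since the mean CPM of Polr1e, the lowest, was above that of 74.3% of the tested rows. The highest library was less than 1.5 times the lowest in 7 genes, and 1.54, 1.61 and 1.74 times the lowest in Ints8, Exosc3 and Polr1e.

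The libraries did not raise or lower the 10 genes together. SD replicate 2 was above the mean of the 6 libraries in 8 genes and NLD replicate 3 in 7, whereas NLD replicate 2 was above it in 3. NLD replicate 2 was the highest library of Rps20, Exosc3 and Smu1 and the lowest of Nol6, Polr1e, Ncbp1 and Tgs1. SD replicate 1 was the highest of Polr1e, Ncbp1 and Ints8 and the lowest of Smu1 and Snd1. Rps20, Exosc3 and Smu1 lay 0.27, 0.33 and 0.21 above their mean in NLD replicate 2 on the log2 scale, and Polr1e and Ncbp1 lay at -0.50 and -0.32.

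**Figure D3:**
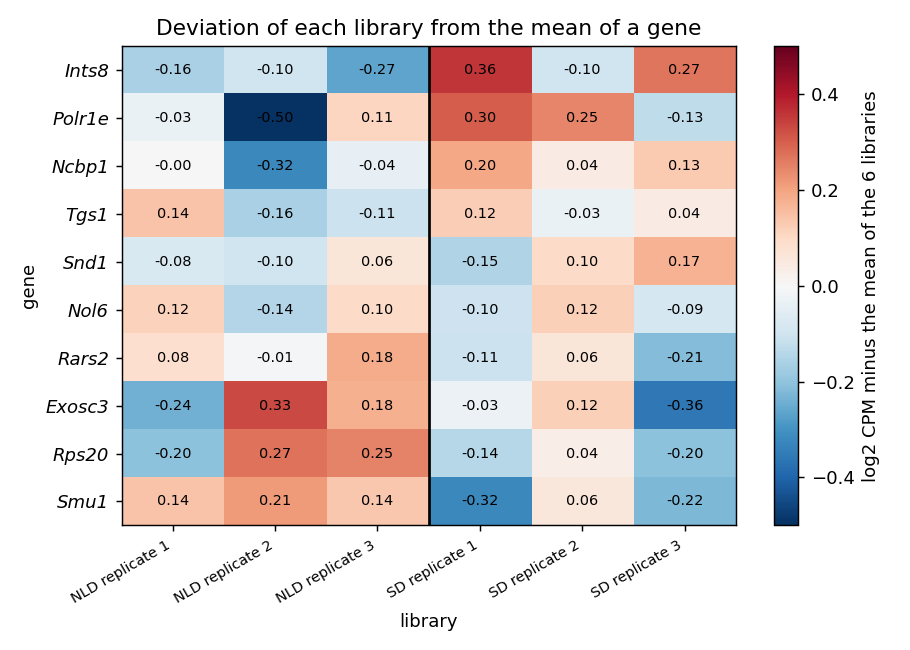
Log2 CPM of each library (columns) minus the mean of the 6 libraries for each of the 10 genes (rows, in the order of their fold change); red is above and blue below the mean. NLD replicate 2 is high for Exosc3 (0.33) and low for Polr1e (-0.50), and SD replicate 1 is high for Ints8 (0.36) and low for Smu1 (-0.32).

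Levels of different genes were compared per length. Per kb of merged exons, Rps20 had a mean of 444 CPM over the 6 libraries (381 to 529.7), followed by Snd1 with 170.2, Exosc3 with 73.6, Ncbp1 with 48.7, Smu1 with 43.1 and Nol6 with 35.7. Ints8 had 22.6 CPM per kb, Rars2 13.7, Tgs1 12.6 and Polr1e 7.10. The ranges over the libraries overlapped between Ncbp1 and Smu1, between Smu1 and Nol6 and between Rars2 and Tgs1, and were apart between the other neighbours in this order. The order depends on the length used. Merged exons join those of all transcripts in the GRCm39 annotation, while coding length leaves out the untranslated parts. How much each transcript was used is not known from gene counts. Per kb of coding length, a measure chosen after seeing the data, Rps20 had 8954 CPM and Snd1 630.3, and Smu1 had 419, above Exosc3 and Ncbp1. Rps20 and Snd1 at the top and Polr1e at the bottom (36.8) were the same with both lengths, while Rars2, Ints8, Nol6 and Tgs1 lay between 60.2 and 83.0, each overlapping with its neighbour. The ribosomal protein was thus 14.2 times the level of Snd1 by coding length and 2.61 times by merged exons. Counts are of the whole gene, also outside the coding sequence, so the coding measure raises genes with a short coding part. The coding length is 357 bases against 7205 of merged exons in Rps20, and 2730 against 10112 in Snd1. The ratio of 14.2 therefore does not measure a difference in transcript number. The ratio of 2.61 does not measure it either, since the gene models that were counted may differ from those of GRCm39. Rps20 starts at 3792164 in the GRCm39 annotation and at 3831584 in that of GRCm38.p6.

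**Figure D4:**
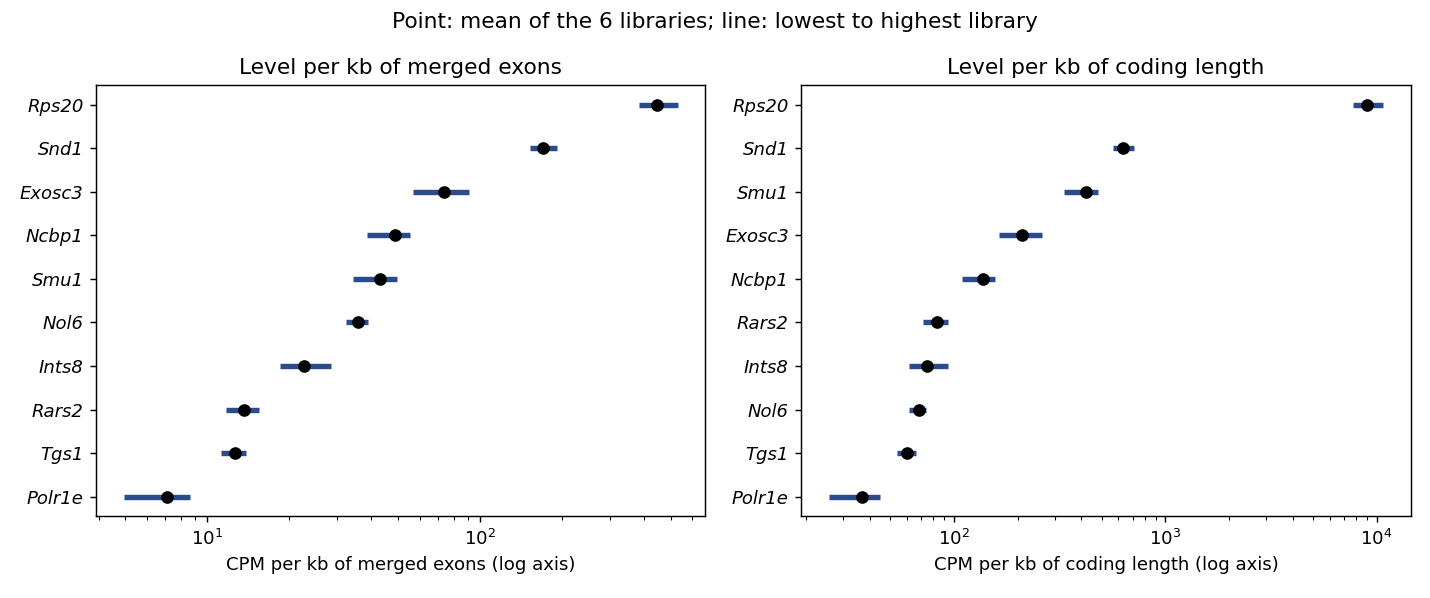
CPM per kb of merged exons (left) and per kb of coding length (right) on log axes, where the point is the mean of the 6 libraries and the line runs from the lowest to the highest library. Rps20 is the highest and Polr1e the lowest in both panels, and Smu1 lies below Exosc3 and Ncbp1 on the left and above them on the right.

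Of the other genes of these pathways, 8 lists with 501 rows in the table were counted, of which 252 rows were at 0 in the 6 libraries and 150 could be tested. None had an adjusted p under 0.05 from edgeR, and 1 had from DESeq2. At an unadjusted p under 0.05 from edgeR 3 were higher and 9 were lower, 8.00% in all against 8.48% of all tested rows. Ribosome assembly held 1 of the higher and 5 of the lower rows, and each other list at most 1 in each direction. This list was singled out after its values were seen. Over the 150 tested rows, the sign of the change was positive in 78 and negative in 72, and the median was 0.04. The tested rows were 12 for cytosolic ribosomal proteins (5 above and 7 below 0), 19 for mitochondrial ribosomal proteins (8 and 11), 32 for ribosome assembly (18 and 14) and 11 for RNA polymerase I and its factors (7 and 4). They were 9 for the exosome (5 and 4), 16 for cap and small nuclear RNA processing (11 and 5), 37 for splicing (19 and 18) and 14 for transfer RNA charging (5 and 9). The lists contain the 10 genes. Most of their other rows do not keep their position between the builds, so that these counts describe rows by name and a zero does not show that a gene was silent.

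Besides the 10 genes, 6 tested rows of the lists keep their position. Mrpl50, a protein of the large mitochondrial ribosomal subunit, had 789, 902 and 903 CPM under NLD and 539.8, 693 and 622 CPM under SD. Every SD library lay below every NLD library, with a log2 fold change of -0.48 (standard error 0.14, unadjusted p = 0.0119, adjusted p = 0.441 from edgeR and 0.0543 from DESeq2). Tex10, a factor of large subunit assembly, had 93.8 ± 5.74 CPM under NLD and 69.1 ± 8.29 CPM under SD (n = 3 each), also without overlap (unadjusted p = 0.0239 and adjusted p = 0.535 from edgeR, log2 fold change -0.44). Mdn1, the large ATPase of the same assembly path, went the other way, with 113 ± 29.0 and 158 ± 12.1 CPM (n = 3 each, adjusted p = 0.594 from edgeR, log2 fold change 0.48). Rngtt, which starts the cap of messenger RNA, had 112 ± 6.03 and 132 ± 10.1 CPM (n = 3 each, adjusted p = 0.642 from edgeR, log2 fold change 0.24), and its groups did not overlap, as those of Ncbp1. Zcchc7, a cofactor of the nuclear exosome, had a log2 fold change of 0.27 and Lsm8, of the ring on U6 small nuclear RNA, one of -0.26 (adjusted p = 0.709 and 0.762 from edgeR), and both overlapped. In these 16 rows, the 10 genes among them, 3 were higher and 3 lower without overlap, and 8 were above and 8 below 0. Of the 347 tested rows that keep their position, 13.5% had an unadjusted p under 0.05 and 22.2% did not overlap.

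The other rows with an unadjusted p under 0.05 were named after their values were seen and do not keep their position, so that they may stand for other genes. Higher were the rows labelled Tars, Tbl3 and Srsf7, and lower were those labelled Ints5, Snrpd1, Dhx37, Qars, Ddx21, Brix1 and Wdr46. The row labelled Ints5 was the 1 that DESeq2 called. It had 668 ± 71.0 CPM under NLD and 413 ± 37.8 CPM under SD (n = 3 each), a log2 fold change of -0.69 with an adjusted p of 0.2298 from edgeR and 2.90e-04 from DESeq2. Ints5 and Ints8 name subunits of the same complex, and the log2 fold change was below 0 for the first and above 0 for the second.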

How the data were processed

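Gene counts from liver libraries of 3 NLD and 3 SD ABX mice were used, each mouse giving 1 library. The authors deposited these counts as whole numbers without normalization. Their methods list fastp, HISAT2 against GRCm39 and StringTie, whereas GEO's processing notes of the submitters list GRCm38 and mm10. Neither a read length nor a strand setting is given in the sources used here. In R 4.3.3, edgeR 4.0.16 was run on the counts with TMM factors, its filter on low counts (7261 rows kept), a robust quasi-likelihood fit and a two-sided F test, and p-values were adjusted by Benjamini-Hochberg over all rows kept. The standard error is the size of the log2 fold change divided by the root of F. DESeq2 1.42.0 was an alternative, as were RLE, upper quartile and same-position TMM factors, other filters, no robust estimation, the replicate number as a block, summed symbols and each library left out.

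A row kept its position when the median difference of 11 neighbouring rows between GRCm39 (GENCODE) and RefSeq GRCm38.p6 was at most 10 bp and its own, taken at whichever gene end differed less, at most 2000 bp. No coordinate was converted. The genes, the lists and the tests were chosen with earlier results of these data known. Named were the 10 genes and, of each list, up to 4 tested rows that keep their position, by smallest p. NLD libraries held 5497797 to 6457190 counts and SD libraries 5548753 to 6932965. No pair of libraries within a group was alike within sampling noise (chi-square per row between 34.8 and 71.4), so each counted as its own replicate. P-values weigh the difference between the groups against the spread between these mice only. The fit shares information on that spread between rows. The result of 1 marker gene is not reported here.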

Additional observations from a re-analysis of the deposited data

How the results depend on the processing

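None of the 10 genes had an adjusted p under 0.05 under any of the 18 alternatives, and the lowest was 0.296 (Rps20 without NLD replicate 1). The direction was the same in 179 of the 180 values, the exception being Nol6, which was at 0.00 without NLD replicate 1 and ran from -0.13 to 0.00 when 1 library was left out. Leaving out 1 library gave 0 called of the 10 genes each time. The 21 rows called in the whole table became 44 with no filter on low counts, 137 with DESeq2, 91 with DESeq2 and no filter, and between 0 and 30 with 1 library left out, with 0 whenever any single SD library was absent. At an unadjusted p under 0.05 edgeR then gave 437, 681 and 397 rows for SD replicates 1, 2 and 3. With the replicate number as a block the 21 rows became 0 in edgeR (766 at an unadjusted p under 0.05). Deviations from the group mean correlated only weakly over rows between mice with the same number (0.08, 0.07 and 0.04). Each library correlated best with its own number in the other group, with values near 0 throughout. The sources do not say that the numbers pair the mice, and these correlations cannot show it. The cause of these changes was not tested. Smu1 had an unadjusted p of 0.0311 with TMM factors from rows that keep their position and 0.0471 with the replicate block. Adding the counts of near-identical copies, chosen after seeing the data, changed no call. It could hardly do so, since only Rps20 had a copy with counts, at most 0.709% of its own. If each count stood for a read, counting error would be 6.71% for the smallest count of the 10 genes (222, Polr1e in NLD replicate 2), against a coefficient of variation of 17.8% between mice for that gene.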
